A study of Mus musculus with 17 samples.

Results

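Leukaemic cells were set against preleukaemic cells in 2 mouse models of SPI1-driven erythroleukaemia, one without FANCA and one with it, and the measurement described here is the gap between these 2 leukaemic changes. For each gene the change from preleukaemic to leukaemic cells in model 2 was subtracted from the same change in model 1, so that a positive log2 difference means a higher leukaemic change in the FANCA-null model. The contrast took 13 of the 17 RNA-seq libraries, 1 library per mouse, and mice are named by the end of their sample titles. Model 1 gave 3 preleukaemic TgSpi1FA-/- mice (preleukemic_40, preleukemic_77 and preleukemic_224) and 3 leukaemic TgSpi1FA-/- mice (leukemic_26, leukemic_28 and leukemic_39). Model 2 gave 4 preleukaemic TgSpi1FA+/+ mice (preleukemic_633, preleukemic_663, preleukemic_812 and preleukemic_837) and 3 leukaemic TgSpi1FA+/+ mice (leukemic_601, leukemic_606 and leukemic_921). The other 4 libraries, preleukaemic FANCA-proficient mice of the model 1 table, entered no arm of the contrast. All 17 mice carried the Spi1 transgene, and all cells were cultured with erythropoietin (EPO). The models differed in more than FANCA. Model 1 mice came from a DBA2J x FVB/N cross and model 2 mice were DBA2J, the RNA input and fragmentation time of the libraries differed, the counts were deposited in separate tables, and leukaemic cells of model 2 emerged after serial blood transfusion. Driver mutations differed as well. The study lists an activating Kit mutation for leukemic_26 and an activating Nras mutation for leukemic_28 and leukemic_39. For the leukaemic cells of model 2 it describes KIT gain-of-function mutations. Differences of genotype, strain, protocol, table and driver mutation therefore cannot be told apart in any value below. The stage of the 3 preleukaemic model 1 mice was taken from these titles, whereas their count columns are named as leukaemic. Of the 28600 genes listed in either table, 22088 were in both, and 14294 of these had enough counts to be tested.

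SPI1 (PU.1) is an ETS transcription factor of the myeloid and lymphoid lineages. When it stays on in erythroid precursors it blocks their differentiation, which the study places at the colony-forming unit erythroid (CFU-E) stage. The arrested cells expand while depending on EPO before mutations in growth factor signalling let them become malignant. FANCA is a subunit of the Fanconi anaemia core complex, which ubiquitinates FANCD2 and FANCI so that DNA crosslinks and stalled replication forks can be repaired.

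Total counts ranged from 29964576 to 38217654 per library in model 1 and from 37726753 to 40514205 in model 2. Fanca was read at 19, 70 and 42 counts in preleukaemic and 35, 47 and 66 counts in leukaemic model 1 libraries, against 1249 to 1782 counts in the 4 preleukaemic and 1221 to 1405 counts in the 3 leukaemic model 2 libraries. The Fanca levels matched the labelled genotype in all 13 libraries. Erythroid blast markers summed to between 8684 and 12140 CPM (counts scaled to the size of the library) in preleukaemic and 3335 to 6432 CPM in leukaemic model 1 libraries, and to 9072 to 16030 CPM and 4454 to 9286 CPM in the respective model 2 groups, and of these markers Hba-a2 alone was listed at 0 in some libraries. Ribosomal protein genes summed to between 11890 and 16030 CPM in the 6 model 1 libraries and 47980 to 124000 CPM in the 7 model 2 libraries. Among the preleukaemic model 2 mice, preleukemic_633 had a mean correlation of log2 CPM with the leukaemic TgSpi1FA-/- libraries of 0.87, against 0.81 to 0.82 for the other 3. Without that mouse 68 of the 69 named genes that could be tested both ways kept the sign of their log2 difference, Fanca (-0.06 and 0.015) being the other, and 54 moved by less than 0.5. The share of all genes with an unadjusted p of the difference under 0.05 went from 23.5% to 19.4%, and differences printed below that moved more are given with both values. X- and Y-linked sex markers were mixed within groups. Their lowest sum was 0.07 CPM in leukaemic model 1, 0.25 CPM in leukaemic and 1.16 CPM in preleukaemic model 2 libraries. The sex of such libraries cannot be read from these markers.

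A single gene passed the test of the difference (edgeR's quasi-likelihood test, Benjamini-Hochberg adjusted p under 0.05 and at least 1.5-fold), 1 of 14294 or 0.007%. It was Rpsa-ps10 (ENSMUSG00000047676), a processed pseudogene on chromosome 3 (GRCm38, chr3:150072658-150073542, minus strand) of the gene for ribosomal protein SA. It was read at 12, 10 and 8 counts in preleukaemic and 6076, 5020 and 5101 counts in leukaemic TgSpi1FA-/- mice, and at 20580 to 29394 and 23695 to 45603 counts in the model 2 groups. The 3 preleukaemic FANCA-null mice were the low ones, and no other group overlapped them. Its log2 difference was 8.24 ± 0.42 (SE, adjusted p = 3.91e-06, range over all alternatives 7.61e-94 to 0.000292). A processed copy shares most of its sequence with its parent, so the reads of Rpsa-ps10 and Rpsa cannot be separated with certainty. Rpsa itself had 720 to 929 counts in the 6 model 1 libraries and 55452 to 133033 counts in the 7 model 2 libraries, and the pseudogene is therefore given as uncertain.

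Below that gene the list had no step: the next adjusted p was 0.0619 and was shared by 195 genes. An unadjusted p under 0.05 was met by 3361 genes (23.5%), of which 1934 (13.5%) were higher and 1427 (9.98%) lower in model 1, and an adjusted p under 0.1 by 1269 genes (8.88%). The count past the test depended on the method. DESeq2 called 1631 of 15347 genes (10.6%), 1148 (7.48%) higher and 483 (3.15%) lower in model 1, and edgeR with all 17 libraries, in which the 4 extra mice add to the estimate of the spread, called 673 (403 higher and 270 lower). Of these 673 genes, 641 were among the DESeq2 calls, which is 95.2% of the smaller and 39.3% of the larger set. Simulated counts for these 13 libraries, with a spread estimated from the real data, gave 73 of 200 changed genes called and 4 false calls by edgeR. DESeq2 called 106 of the 200, with 56 false calls. With a low spread edgeR called 193 of 200 with 4 false calls, and DESeq2 called 191 with 5 false calls. The simulation gave all 13 libraries the same mean level of a gene, apart from changes planted in leukaemic model 1 among genes that were not low. Real libraries differ in level between the tables, so these shares cannot be carried over to them. Which method gives the better count for the real libraries was not tested. Because the count depended on the method, the genes below are named by the size of their p or by a gene list. Unless a call is stated, their difference did not pass the test.

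Within each model more genes were called. The leukaemic change passed the test for 529 genes (3.7%) in model 1, 295 (2.06%) higher and 234 (1.64%) lower, and for 520 genes (3.64%) in model 2, 245 (1.71%) higher and 275 (1.92%) lower. These counts were unstable. With 1 mouse left out they ran from 1 (without preleukemic_224) to 1076 (without leukemic_26) in model 1. In model 2 they ran from 0 (without preleukemic_633, preleukemic_837 or leukemic_606) to 1491 (without preleukemic_812). The model 2 count was also 0 without leukemic_28, preleukemic_40, preleukemic_77 or preleukemic_224. Those are model 1 mice, which share the fit but are in no arm of that change. When each model was fitted alone, 1176 genes were called in model 1 and 0 in model 2, where 2578 genes had an unadjusted p under 0.05 and DESeq2, on both models together, called 1520. The median absolute log2 change was much alike, 0.53 in model 1 and 0.51 in model 2. Across the 14294 genes the 2 changes had a Pearson correlation of -0.11 (Spearman 0.03), and of 0.15 without preleukemic_633. Genes are not independent replicates, and these correlations are descriptions.

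**Figure D1:**
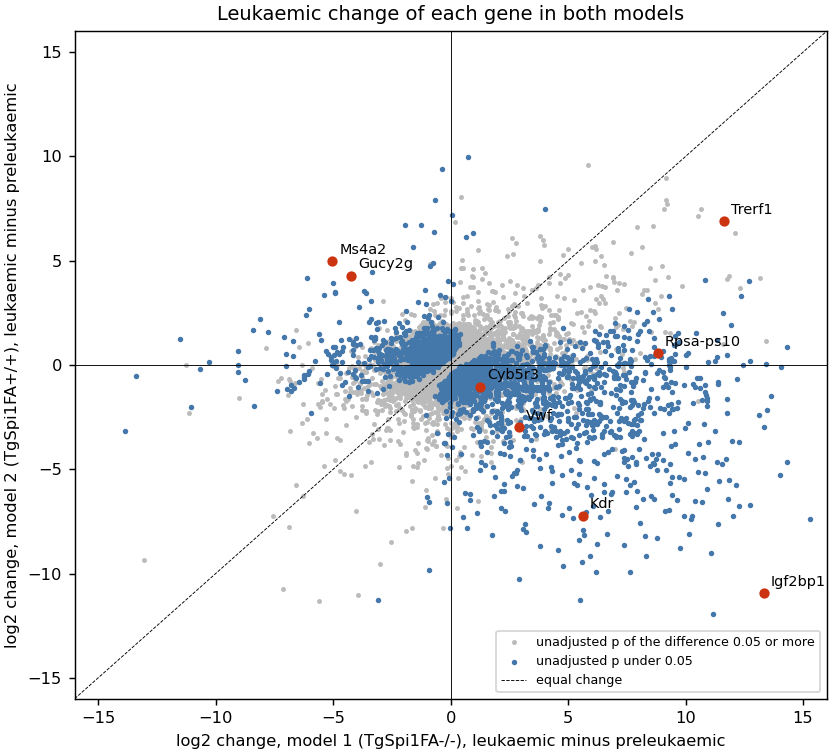
Log2 leukaemic change of each of 14294 genes in model 1 (x axis, TgSpi1FA-/-, 3 against 3 mice) and model 2 (y axis, TgSpi1FA+/+, 3 against 4 mice). Blue points have an unadjusted p of the difference under 0.05, the dashed line marks equal change, and the red points name 8 genes. Kdr and Ms4a2 lie far from the dashed line on opposite sides of it.

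Genes called in both models numbered 23 (0.161%), and 5 of these (0.035%) moved in opposite directions. Kdr, Vwf and Cyb5r3 rose in leukaemic FANCA-null cells and fell in leukaemic FANCA-proficient cells, whereas Ms4a2 and Gucy2g fell in the former and rose in the latter. Their 5 differences had an adjusted p of 0.0619, and of 0.0285 to 0.0471 when all 17 libraries were fitted. With 1 mouse left out, genes were called in opposite directions only without leukemic_26 (4 genes) or preleukemic_812 (11 genes). Without any other single mouse, preleukemic_633 included, no gene was. The set of 5 therefore depended on nearly every mouse.

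Kdr encodes the VEGF receptor VEGFR2, the main signalling receptor of blood vessel endothelium. It lies at chr5:75932827-75978458 on the minus strand. Kdr had 10, 13 and 22 counts in preleukaemic and 267, 1045 and 1362 counts in leukaemic model 1 mice, and 56, 10, 2 and 8 counts in preleukaemic and 0 in each of the 3 leukaemic model 2 mice. Neither pair of groups overlapped. The rise in model 1 was 5.62 ± 1.2 on the log2 scale (adjusted p = 0.041). In model 2 a floor of 3 counts per library makes the level at least 5.78-fold lower in leukaemic cells, or at least 2.07-fold without preleukemic_633.

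Vwf encodes von Willebrand factor, the clotting protein stored by endothelium and megakaryocytes. It had 4, 14 and 7 counts in preleukaemic and 40, 68 and 122 counts in leukaemic model 1 mice, and 77, 14, 38 and 43 counts against 4, 5 and 6 counts in model 2. The changes were 2.90 ± 0.72 (adjusted p = 0.0496) and -2.96 ± 0.71 (adjusted p = 0.0468), and the difference was 5.87 ± 1.02, or 5.46 without preleukemic_633. Cyb5r3 encodes the NADH-cytochrome b5 reductase that keeps haemoglobin iron in its reduced state in red cells. It was well expressed, with 1957 to 2453 counts in preleukaemic and 5112 to 7302 counts in leukaemic model 1 mice, and 4984, 2760, 2078 and 2345 counts against 1644, 1358 and 1164 counts in model 2. Its level rose by 1.25 (adjusted p = 0.0381) in model 1 and fell by 1.04 (adjusted p = 0.0492) in model 2, and the difference of 2.29 ± 0.37 became 1.97 without preleukemic_633.

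Ms4a2 encodes the beta chain of the high-affinity IgE receptor, a marker of mast cells and basophils. It had 17, 491 and 34 counts in preleukaemic and 7, 5 and 8 counts in leukaemic model 1 mice, and 46, 68, 159 and 29 counts against 1328, 2446 and 2938 counts in model 2. The mouse preleukemic_77 was far above the other 2 preleukaemic FANCA-null mice, but the groups did not overlap in either model. The changes were -5.04 (adjusted p = 0.0494) and 4.96 (adjusted p = 0.0406). In bulk RNA, more cells of a type and more RNA per cell cannot be told apart. Gucy2g encodes a membrane guanylate cyclase, which makes cyclic GMP. It was a low gene throughout, with 10, 29 and 33 counts against 3, 1 and 0 counts in model 1 and 1 to 3 counts against 17, 42 and 54 counts in model 2. It fell in model 1 (-4.25, adjusted p = 0.0381) and rose in model 2 (4.28, adjusted p = 0.0397).

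Promoters are shown for 3 of the 5 genes that moved in opposite directions (RefSeq, GRCm38.p6, 250 bases before to 50 bases after the start, gene strand). No promoter was listed for Vwf or Cyb5r3. Ms4a2 and Gucy2g, which lie on the same chromosome and moved the same way, are given with Kdr, which moved the other way. Of 2 promoters listed for Gucy2g, the one nearest its annotated start is printed. Capitals mark AGATAA on either strand, the motif bound by GATA factors.
Ms4a2, chr19:11623670-11623969, minus strand: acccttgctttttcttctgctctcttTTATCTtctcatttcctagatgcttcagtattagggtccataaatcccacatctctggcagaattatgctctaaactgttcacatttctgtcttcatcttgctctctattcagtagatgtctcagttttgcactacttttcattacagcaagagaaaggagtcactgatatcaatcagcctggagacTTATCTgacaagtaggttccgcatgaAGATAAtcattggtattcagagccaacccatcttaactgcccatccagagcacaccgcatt
Gucy2g, chr19:55241203-55241502, minus strand: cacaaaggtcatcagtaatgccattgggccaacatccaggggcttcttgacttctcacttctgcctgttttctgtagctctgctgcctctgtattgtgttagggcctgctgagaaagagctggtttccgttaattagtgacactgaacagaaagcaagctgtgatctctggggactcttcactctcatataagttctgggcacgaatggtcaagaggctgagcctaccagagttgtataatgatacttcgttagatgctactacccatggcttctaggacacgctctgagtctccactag
Kdr, chr5:75978406-75978705, minus strand: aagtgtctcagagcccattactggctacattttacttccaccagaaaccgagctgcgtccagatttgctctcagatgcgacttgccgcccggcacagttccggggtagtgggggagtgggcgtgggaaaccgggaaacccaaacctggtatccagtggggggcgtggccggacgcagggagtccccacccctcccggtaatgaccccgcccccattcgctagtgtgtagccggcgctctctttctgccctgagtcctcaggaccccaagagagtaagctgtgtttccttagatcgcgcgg
The Ms4a2 promoter held AGATAA 3 times and the other 2 did not hold it, in a window where 11.2% of 32851 RefSeq promoters have the motif. None of the 3 held GAGGAA, a core of many PU.1 sites (28.3% of promoters), or TATAAA (13.6%). These matches describe the letters in the windows and are not binding sites.

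**Figure D2:**
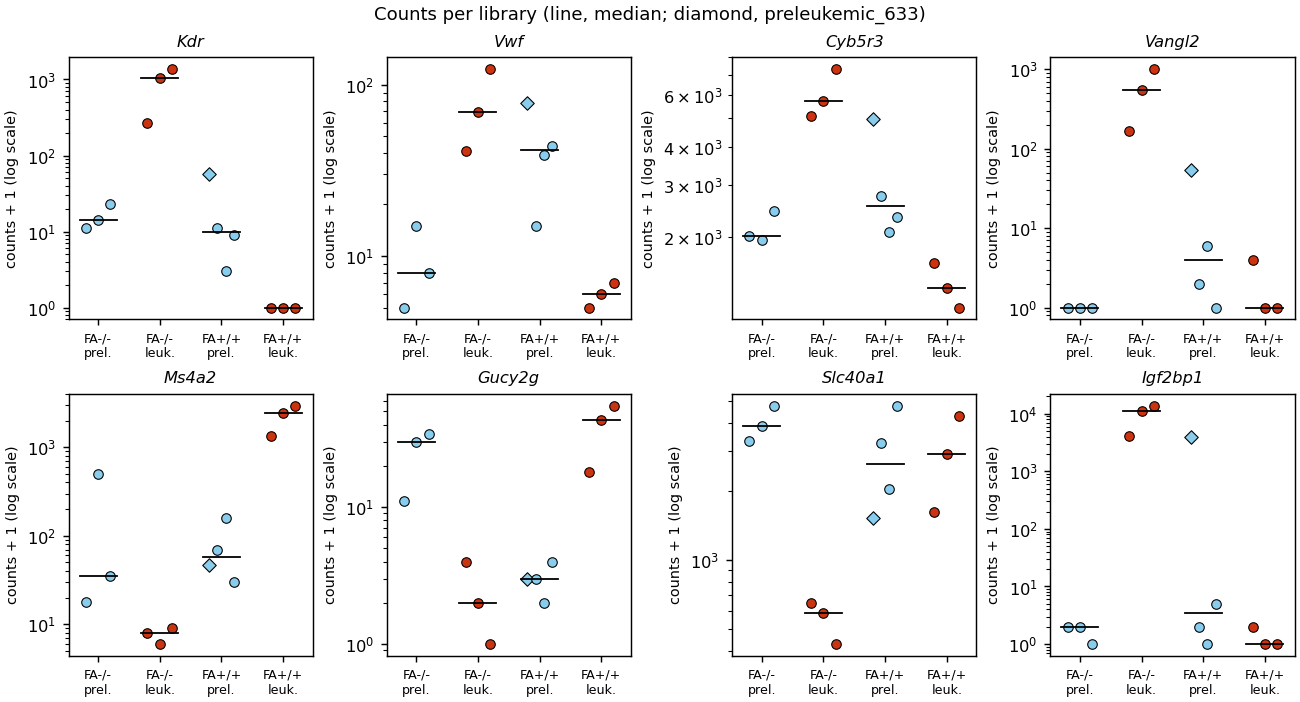
Counts + 1 on a log scale (y axis) in each of the 13 libraries by group (x axis) for 8 genes, with the group median as a line and preleukemic_633 as a diamond. Kdr, Vwf and Cyb5r3 moved up in FA-/- and down in FA+/+ leukaemic cells, Ms4a2 and Gucy2g the opposite way, and preleukemic_633 had 3899 Igf2bp1 counts while the other 3 preleukaemic FA+/+ mice had 0 to 4.

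Counting overlap rather than fitting a model, 332 genes (2.32%) had leukaemic and preleukaemic libraries that did not overlap in either model and moved in opposite directions, 142 (0.993%) higher and 190 (1.33%) lower in model 1. The same was true of 588 genes (4.11%) in the same direction. One gene that moved the same way in both models was Trerf1, a transcriptional regulator. It had 0 counts in all 3 preleukaemic and 247, 258 and 839 counts in leukaemic model 1 mice, and 3, 0, 7 and 0 counts against 519, 173 and 225 counts in model 2. The floor of 3 counts puts the Trerf1 rise in model 1 at 124-fold or more, and at 72-fold or more without leukemic_39.

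After Rpsa-ps10, the smallest p among the genes higher in model 1 was that of Sf3b4, which encodes a splicing factor subunit of the U2 snRNP. It had 1456 to 1625 counts in preleukaemic and 4687 to 6280 counts in leukaemic model 1 mice, and overlapping groups of 2778 to 4252 and 2022 to 3930 counts in model 2. Sf3b4 rose in model 1 (1.64, adjusted p = 0.0137), did not pass in model 2 (-0.21) and differed by 1.85 ± 0.28. Ahdc1, which encodes an AT-hook DNA-binding protein, differed by 4.85 ± 0.74, with 133, 151 and 260 counts against 2918, 1507 and 1779 counts in model 1 and 118 to 355 against 27 to 110 counts in model 2. Tbc1d16, a regulator of Rab GTPases, differed by 8.74 ± 1.35 (7.89 without preleukemic_633) and rose in model 1 from 14 to 32 counts to between 1815 and 3217 counts. The stress kinase gene Nuak2 (8.51 ± 1.5, or 7.28 without preleukemic_633) rose in model 1 from 1, 3 and 1 counts to 281, 179 and 397 counts, and Hapln4, which encodes a matrix link protein (7.64 ± 1.28), from 0 to 2 counts to 23 to 119 counts.

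Ccnd3 encodes cyclin D3, the cyclin that sets the number of divisions of terminal erythroid precursors. It had 4067 to 5870 counts in preleukaemic and 10476 to 16216 counts in leukaemic model 1 mice, and 7499 to 14529 against 2581 to 4332 counts in model 2. No groups overlapped. Ccnd3 fell in model 2 (-1.42, adjusted p = 0.0403), just missed the threshold in model 1 (1.05, adjusted p = 0.06), and differed by 2.47 ± 0.40.

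Genes lower in model 1 included several with modest but tight differences. Decr1, which encodes a mitochondrial enzyme for the oxidation of unsaturated fatty acids, had 1290, 1314 and 1944 counts against 396 to 1034 counts in model 1 and 1033 to 1473 against 2568, 4248 and 2855 counts in model 2. Its level rose in model 2 (1.51, adjusted p = 0.0403) and its difference was -2.87 ± 0.47. Rpain, whose product carries the single-strand binding protein RPA into the nucleus, differed by -2.24 ± 0.38 and also rose in model 2 (1.37, adjusted p = 0.0397). Polb, the DNA polymerase of base excision repair, had 1435 to 1788 against 1272 to 1503 counts in model 1 and 1608 to 1847 against 2554 to 2921 counts in model 2, a difference of -1.22 ± 0.23.

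In others the model 1 arm carried the difference. Exoc7, an exocyst subunit, fell in model 1 from 2283 to 2913 counts to between 916 and 1094 counts (-1.65, adjusted p = 0.0202) and had a model 2 change of 0.03. Nptn, a cell adhesion gene, differed by -1.52 ± 0.27 and fell in model 1 (-1.04, adjusted p = 0.0334). Zg16, which encodes a lectin of secretory granules, had 334, 727 and 881 counts against 1, 0 and 0 counts in model 1, and overlapping groups of 13 to 748 and 51 to 504 counts in model 2.

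Slc40a1, which encodes ferroportin, the only known exporter of iron from cells, had the smallest p of 19 iron genes. It had 3317, 3882 and 4749 counts in preleukaemic and 645, 584 and 427 counts in leukaemic model 1 mice, against 1531 to 4715 and 1617 to 4262 counts in model 2. The gene fell in model 1 (-3.08, adjusted p = 0.0202), did not pass in model 2 (0.16), and differed by -3.24 ± 0.60. The iron list as a whole had a median difference of -0.12, with 2 genes higher and 3 lower at an unadjusted p under 0.05 (26.3%), and the median ran from -0.27 (without leukemic_26) to 0.07 (without leukemic_39). Of 19 heme synthesis enzymes only Fech (1.70 ± 0.52, or 1.22 without preleukemic_633) and Abcb10 (1.12 ± 0.42), the ferrochelatase and a mitochondrial transporter that acts with it, reached that level, or 10.5% against 23.5% of all genes, and the median was 0.11. The median over all genes tested was 0.05.

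WNT signalling is carried by a canonical branch, in which LRP co-receptors stabilise beta-catenin for TCF/LEF factors, and by a planar cell polarity branch that includes VANGL proteins. None of the members of these lists, or of any other pathway list, passed the test of the difference. In the list of beta-catenin, TCF/LEF factors and nuclear cofactors, 9 of 15 genes were higher in model 1 at an unadjusted p under 0.05 and none lower. This was 60.0%, or 46.7% without preleukemic_633, against 13.5% and 10.9% of all genes higher. The median difference of the list was 1.39 (1.24 to 1.65 with 1 mouse left out). The corepressor gene Tle3 had 1656 to 3028 against 3444 to 4840 counts in model 1 and 945 to 1569 against 587 to 760 counts in model 2, a difference of 1.39 ± 0.32. Neither pair of Tle3 groups overlapped. Tcf7, which encodes the T cell factor TCF1, had 8, 1 and 2 counts against 109, 2676 and 1536 counts in model 1 and 146, 0, 2 and 3 counts against 0 counts in model 2, where preleukemic_633 alone was high.

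Of the WNT feedback genes, 6 of 15 (40%) were higher in model 1 at an unadjusted p under 0.05 and none lower. Of all genes, 13.5% were higher. Kremen1, a receptor for the WNT inhibitor DKK1, rose in model 1 from 32, 46 and 34 counts to 231, 339 and 620 counts (3.13, adjusted p = 0.0239), had 50 to 129 against 38 to 45 counts in model 2, and differed by 3.94 ± 0.71. Btrc, which encodes the ubiquitin ligase subunit that marks beta-catenin for destruction, rose in model 1 (1.69, adjusted p = 0.0353) from 404 to 609 counts to between 1823 and 2093 counts and differed by 2.61 ± 0.49. The 14 WNT ligands and receptors had a median difference of 1.63, which was 0.46 without preleukemic_633. Lrp5, the co-receptor, had 4, 0 and 1 counts against 783, 1232 and 2007 counts in model 1 and 560, 2, 8 and 277 counts against 45, 593 and 45 counts in model 2, so that the 2 model 2 groups overlapped.

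Vangl2 had 0 counts in all 3 preleukaemic FANCA-null mice and 168, 549 and 998 counts in the leukaemic ones. It had 53, 1, 5 and 0 counts against 3, 0 and 0 counts in model 2. The model 1 rise passed the test (adjusted p = 0.0454) and was at least 157-fold against the floor, or at least 100-fold without leukemic_39. Ankrd6, which encodes the polarity protein Diversin, had 14, 44 and 44 counts against 239, 995 and 1259 counts in model 1 and differed by 6.23 ± 1.75, or by 4.24 without preleukemic_633. The 13 polarity genes as a list had a median difference of -0.21, which ran from -0.29 to 1.18 (without leukemic_601) with 1 mouse left out.

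NOTCH receptors are cleaved after binding a ligand on a neighbouring cell. Of 16 NOTCH receptors, ligands and targets, 3 (18.8%) were higher in model 1 at an unadjusted p under 0.05 and none lower. That share was below the 23.5% of all genes in either direction, while 13.5% of all genes were higher. The median difference of the list was 0.87. The ligand gene Jag2 had 4, 9 and 12 counts against 26, 2665 and 5013 counts in model 1 (7.97, adjusted p = 0.039), where leukemic_26 was far below the other 2 leukaemic mice, and 4 to 75 against 2 to 7 counts in model 2. Notch1 (0 counts against 4, 42 and 98 counts in model 1, 0 or 1 count in model 2) and Jag1 (0, 0 and 2 against 3, 26 and 180 counts in model 1, 0 to 8 counts in model 2) were too low to be tested. Aph1a, a subunit of the gamma-secretase that cleaves NOTCH, rose in model 1 from 370 to 516 counts to between 1877 and 2058 counts (1.84, adjusted p = 0.0202) and differed by 1.69 ± 0.38.

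**Figure D3:**
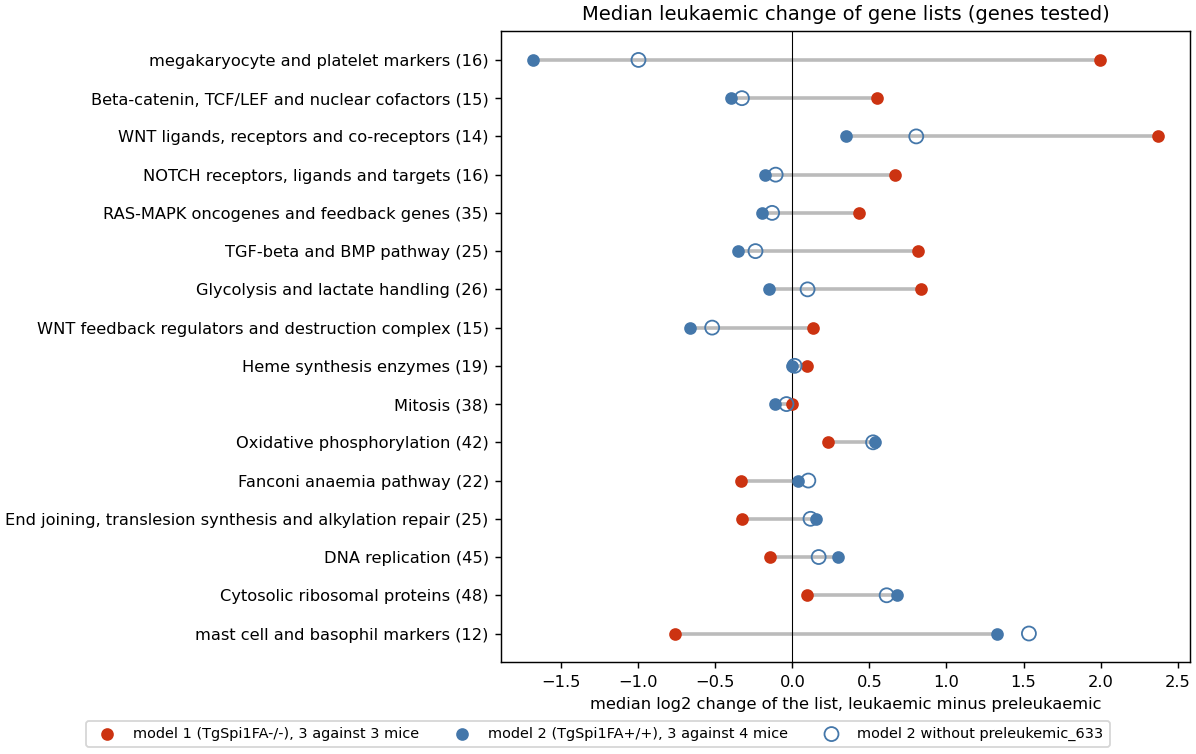
Median log2 leukaemic change of 16 gene lists (number of genes tested in brackets) in model 1 (red), model 2 (blue) and model 2 without preleukemic_633 (open circle). Of the 16 lists drawn, the megakaryocyte list is farthest apart, at 2.00 and -1.69, and the DNA replication and ribosomal protein lists have the higher value in model 2.

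RAS-MAPK genes sit downstream of KIT and EPO receptors. Of 35 oncogenes and feedback genes, 12 were higher and 3 lower in model 1 at an unadjusted p under 0.05 (42.9%), with a median difference of 0.85. Of all genes 23.5% reached that level, 13.5% higher and 9.98% lower. Without preleukemic_633, 12 of 34 (35.3%, against 19.4% of all genes) reached that level and the median was 0.61. Nras had 7113, 5945 and 4860 counts against 10003, 36292 and 42448 counts in model 1, so that leukemic_28 and leukemic_39 stood far above leukemic_26, and 6036 to 8504 against 5398 to 11967 counts in model 2. Nras rose in model 1 (2.03, adjusted p = 0.0353) and differed by 1.5 ± 0.57 (unadjusted p = 0.0225), or by 1.4 without preleukemic_633. Sos1, the exchange factor that loads RAS with GTP, fell in model 2 from 1848 to 4595 counts to between 1041 and 1590 counts (-1.12, adjusted p = 0.0468) and differed by 1.39 ± 0.39, or by 1.11 without preleukemic_633. The feedback phosphatase gene Dusp4 rose in model 1 (7.59, adjusted p = 0.0459) from 26, 0 and 4 counts to 22, 1723 and 5389 counts, but leukemic_26 lay within the preleukaemic range. Dusp4 was chosen after its values were seen.

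Of 29 genes of EPO receptor, KIT and JAK-STAT5 signalling, 6 were higher and 1 lower at that level, 24.1% against 23.5% of all genes. Sh2b3, which encodes the adaptor LNK that restrains KIT and JAK2 signals, rose in model 1 from 794 to 1082 counts to between 1882 and 3396 counts (1.30, adjusted p = 0.0494) and differed by 1.89 ± 0.44. Kit, the stem cell factor receptor, had 8447 to 11507 counts in preleukaemic and 29583, 9352 and 9428 counts in leukaemic model 1 mice, with leukemic_26 alone above the others, and 1602 to 9482 against 5044 to 9856 counts in model 2. Its difference of -0.34 ± 0.79 ran from -1.19 (without leukemic_26) to -0.04 (without leukemic_39) and was -0.95 without preleukemic_633.

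HOX proteins and their cofactors pattern the embryo and act in early blood progenitors. Pbx2, one such cofactor, had 1615 to 2495 against 3846 to 6964 counts in model 1 and differed by 2.00 ± 0.48. The list of 11 HOX genes and cofactors had 5 genes higher and 1 lower at an unadjusted p under 0.05, which is 54.5% against 23.5% of all genes. Its median of 5.93, which was 2.90 with groups at the floor set to 3 counts, fell to 0.71 without preleukemic_663.

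Igf2bp1, an oncofetal RNA-binding protein that stabilises mRNAs in embryonic cells, had 1, 1 and 0 counts against 4123, 11040 and 13809 counts in model 1. In model 2 it had 3899, 1, 0 and 4 counts against 1, 0 and 0 counts, so that preleukemic_633 had a level near that of leukaemic FANCA-null cells. Fgf3, a fibroblast growth factor gene, had 0, 1 and 0 counts against 200, 14660 and 19005 counts in model 1 (14.33, adjusted p = 0.024) and 1 to 32 against 0 to 37 counts in model 2. Smad4, the common mediator of TGF-beta and BMP signals, had 859 to 1612 against 3201 to 4397 counts in model 1 (1.33, adjusted p = 0.0493) and differed by 2.02 ± 0.45. Of 25 genes of that pathway, 8 were higher and 1 lower at an unadjusted p under 0.05 (36%, against 23.5% of all genes), with a median of 1.11, or 1.72 without leukemic_601.

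Markers of other lineages had differences of both signs. Megakaryocytes share a progenitor with erythroid cells. Of 21 megakaryocyte and platelet markers, 20 were in both tables and 16 had enough counts to be tested. Of these 16 markers, 8 (50%) were higher in model 1 at an unadjusted p under 0.05 and none lower, against 13.5% of all genes higher. The median change of these markers was 2.00 in model 1 and -1.69 in model 2. Their median difference of 3.8 became 3.20 with groups at the floor set to 3 counts and 2.97 without preleukemic_633. F2r, which encodes the thrombin receptor PAR1, had 4, 0 and 27 counts against 14930, 15351 and 15983 counts in model 1 (10.32, adjusted p = 0.0282) and 782 to 4897 against 15 to 1704 counts in model 2. Itga2b, the platelet integrin chain CD41, had 550 to 675 against 3385, 9517 and 8018 counts in model 1 and overlapping groups of 603 to 2487 and 140 to 3462 counts in model 2. Itga2b, chosen like Pecam1 below after its values were seen, did not pass in model 1 (3.23, adjusted p = 0.0662). Summed over the list, these markers stood at 407.1 to 872.9 CPM in preleukaemic and 814.9 to 1858 CPM in leukaemic model 1 libraries, and at 801.5 to 1417 CPM and 465.9 to 1157 CPM in model 2.

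Of 16 endothelial markers, 10 were in both tables and 7 had enough counts to be tested. The 7 include Kdr and Vwf, already named above for their opposite changes. Of the 7, 4 (57.1%) were higher in model 1 at that level and none lower, against 13.5% of all genes higher. Low genes could enter the test through 1 high group alone, so this share is a description. Pecam1, which encodes CD31 of endothelium and platelets, was low throughout, with 0 or 1 count against 10, 60 and 16 counts in model 1 and 0 to 6 against 0 to 3 counts in model 2. Cdh5 and Flt1, which also define endothelium, were listed at 0 in most libraries. The list summed to 17.4 to 54.0 CPM in preleukaemic and 32.7 to 144.6 CPM in leukaemic model 1 libraries, and to 37.4 to 75.1 CPM and 5.08 to 24.5 CPM in model 2.

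Of the mast cell and basophil markers, 3 of 12 (25.0%) were lower in model 1 at an unadjusted p under 0.05 and none higher. That share was near the 23.5% of all genes in either direction, while 9.98% of all genes were lower. Besides Ms4a2, the basophil protease gene Mcpt8 had 0 or 1 count in all 6 model 1 mice and 0, 0, 4 and 0 counts against 202, 112 and 39 counts in model 2 (6.72, adjusted p = 0.0405). Summed over the list, the markers stood at 781 to 1114 CPM in preleukaemic and 770 to 1225 CPM in leukaemic model 1 libraries, and at 544 to 1261 CPM and 1352 to 1807 CPM in model 2. The 3 leukaemic FANCA-proficient libraries were thus above the other 10, while the median difference of -1.53 ran from -3.49 (without leukemic_26) to -1.22 and was -2.49 with groups at the floor set to 3 counts. The part of other cell types in the differences of other genes was not tested.

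An embryonic globin gene rose and an adult one fell in leukaemic FANCA-null cells. The embryonic beta globin gene Hbb-bh1 had 0, 3 and 2 counts against 588, 71844 and 36960 counts in model 1 (14.04, adjusted p = 0.0498) and 3233, 10, 8 and 8 counts against 3, 49 and 6 counts in model 2. The adult gene Hbb-bt fell in model 1, from 3020, 11824 and 5748 counts to 278, 115 and 4 counts (-5.92, adjusted p = 0.0382), and had 11454 to 86154 against 4150 to 16264 counts in model 2. Hba-x, the embryonic alpha globin gene, had 0 to 2 counts in preleukaemic and 2, 4630 and 257 counts in leukaemic model 1 mice, and 71 counts in preleukemic_633 against 0 to 2 counts in the other 6 model 2 mice. The list median of 3.56 became 1.82 without preleukemic_633.

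DNA replication genes had a higher median leukaemic change in the FANCA-proficient model. Of 45 genes, 16 were lower in model 1 at an unadjusted p under 0.05 and 1 was higher. This was 37.8%, or 28.9% without preleukemic_633, against 23.5% and 19.4% of all genes. The median difference was -0.46 (-0.55 to -0.35 with 1 mouse left out). The median change was -0.14 in model 1 and 0.30 in model 2 (0.17 without preleukemic_633). In model 2, 9 of the 45 genes (20%) rose, against 1.71% of all genes, and none fell. No gene at all passed in model 2 without preleukemic_633, nor without leukemic_606 or several other single mice. Prim1, the catalytic subunit of primase, had 3449 to 4930 against 3177 to 3628 counts in model 1 and 2896 to 5131 against 6539 to 9237 counts in model 2. Prim1 rose in model 2 (1.0, adjusted p = 0.0403) and differed by -1.59 ± 0.30. Gins2, part of the replicative helicase, rose in model 2 from 1048 to 1548 counts to between 2526 and 3047 counts (1.10, adjusted p = 0.0416) and differed by -1.72 ± 0.37.

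Genes that also rose in model 2 were the origin recognition subunit gene Orc6 (0.96, adjusted p = 0.0317 in model 2, difference -0.73 ± 0.22), the thymidine kinase gene Tk1 (1.33, adjusted p = 0.0403, difference -1.38 ± 0.41) and the thymidylate synthase gene Tyms (1.26, adjusted p = 0.0416, difference -1.19 ± 0.42), which were chosen after their values were seen. Other members had smaller differences. The clamp gene Pcna, whose product tethers polymerases, differed by -0.40 ± 0.42, and the helicase gene Mcm5 by -0.21 ± 0.29, and both were also chosen in this way. Of 38 mitosis genes 7 were higher and 4 lower in model 1 at an unadjusted p under 0.05, with a median of 0.09. That was 28.9%, or 21.1% without preleukemic_633, near the 23.5% and 19.4% of all genes.

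Genes of the Fanconi anaemia pathway, to which FANCA belongs, were lower in 7 of 22 and higher in none at that level (31.8%, or 22.7% without preleukemic_633). Of all genes, 23.5% (19.4% without that mouse) reached it in either direction, and 9.98% (8.51%) were lower. The Fanconi median difference was -0.38, which ran from -0.55 (without preleukemic_77) to -0.14 (without preleukemic_812). Brip1, the helicase FANCJ, fell in model 1 from 1701 to 2009 counts to between 987 and 1219 counts (-1.05, adjusted p = 0.0353), had 1119 to 2036 against 1713 to 1948 counts in model 2, and differed by -1.44 ± 0.30. Fancb, a core complex subunit like FANCA, had 828 to 910 against 690 to 879 counts in model 1 and 518 to 1015 against 1189 to 1382 counts in model 2, a difference of -1.18 ± 0.34.

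Counting both directions, other repair genes had shares near the background of 23.5%. Over all genes, 9.98% were lower and 13.5% higher in model 1 at an unadjusted p under 0.05. Of 29 homologous recombination and checkpoint genes, 6 were lower and 1 higher in model 1 (24.1%, median -0.09), and of 25 end joining, translesion and alkylation repair genes, 6 were lower and none higher (24.0%, median -0.41). Nbn, a subunit of the complex that senses double-strand breaks, fell in model 1 from 3280, 3390 and 5703 counts to 2497, 2584 and 3054 counts (-0.84, adjusted p = 0.0454) and differed by -1.27 ± 0.27. Xrcc2, a gene of homologous recombination, rose in model 2 from 541 to 876 counts to between 1290 and 1493 counts (0.98, adjusted p = 0.0416) and differed by -1.32 ± 0.33. Pms2, a mismatch repair gene listed with the alkylation repair genes, differed by -1.31 ± 0.34.

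Ribosomal protein genes were lower in 13 of 48 and higher in none at an unadjusted p under 0.05 (27.1%, or 14.6% without preleukemic_633). Of all genes, 23.5% (19.4% without that mouse) reached that level in either direction, and 9.98% (8.51%) were lower. The ribosomal protein genes had a median change of 0.10 in model 1 and 0.68 in model 2 and a median difference of -0.61. Their preleukaemic level was a median log2 of 3.29 higher in the model 2 table, against 0.04 over all genes, so these values compare arms of tables in which the genes were read at very different levels. Rps25 had 589 to 841 against 713 to 832 counts in model 1 and 37689 to 57438 against 77360 to 84675 counts in model 2, where it rose (0.86, adjusted p = 0.0436). Oxidative phosphorylation genes had 2 of 42 higher and 6 lower (19%) with a median of -0.24, or -0.08 without preleukemic_837. In model 2, 7 of them rose (16.7%, against 1.71% of all genes) and 1 fell. These calls were all lost without preleukemic_633, and also without leukemic_606 or several other single mice. Ndufa1, a complex I subunit, rose in model 2 from 1636 to 2353 counts to between 2768 and 3717 counts (0.81, adjusted p = 0.0416) and differed by -1.27 ± 0.27.

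Of 26 glycolysis genes, 5 (19.2%) were higher in model 1 at an unadjusted p under 0.05 and none lower. That share was below the 23.5% of all genes in either direction, while 13.5% of all genes were higher. The glycolysis median was 1.0, or 0.70 without preleukemic_633. Pfkfb4, which makes the activator of phosphofructokinase, rose in model 1 (2.90, adjusted p = 0.0418) from 260 to 285 counts to 439, 2921 and 3992 counts, with leukemic_26 well below the other 2 leukaemic mice, and differed by 3.45 ± 0.88. Eno2, the neuronal enolase gene, rose in model 1 (7.94, adjusted p = 0.0381) from 1 to 3 counts to between 406 and 982 counts, and had overlapping groups of 9 to 1569 and 121 to 1937 counts in model 2. MHC class I antigen presentation genes had 5 of 24 lower and 1 higher. This was 25.0%, or 12.5% without preleukemic_633, against 23.5% and 19.4% of all genes. The MHC class I median was -0.61, or -0.32 without leukemic_601. Of 35 interferon-stimulated genes 2 were higher and 2 lower (11.4%, against 23.5% of all genes), and the median of -0.42 changed sign without leukemic_601, to 0.80. The antiviral gene Ifitm1 rose in model 1 (9.09, adjusted p = 0.0438) from 0 or 1 count to 142, 240 and 1163 counts. B4galt5, a galactosyltransferase of glycolipid synthesis, had 0 counts in all 3 preleukaemic and 955, 2536 and 3873 counts in leukaemic model 1 mice (adjusted p = 0.0353), and 41, 0, 2 and 1 counts against 24, 1 and 4 counts in model 2.

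Of the genes tied to the disease by the study, Spi1 and Kit had differences smaller than their standard errors. Spi1 had 20712, 20903 and 26698 counts in preleukaemic and 22985, 8596 and 153 counts in leukaemic model 1 mice, so that leukemic_39 had very few Spi1 reads, and 8540 to 13426 against 4047 to 6782 counts in model 2. Its difference of -0.55 ± 1.32 ran from -1.90 (without leukemic_26) to 0.034 (without leukemic_39). Trp53, which encodes p53, was near 0 in 2 FANCA-null mice, with 27 counts in the preleukaemic preleukemic_224 and 0 in the leukaemic leukemic_39. The other 4 model 1 mice had 1619 to 16009 counts, and model 2 mice had 8586 to 25191 against 4730 to 9577 counts. Mdm4, an inhibitor of p53, had 2264 to 2977 against 5675, 7186 and 12234 counts in model 1 and overlapping groups of 2647 to 6270 and 2866 to 5510 counts in model 2. Its difference was 1.61 ± 0.50 (unadjusted p = 0.00746), and the model 1 change just missed the threshold (1.43, adjusted p = 0.0515).

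Each arm held 3 or 4 mice, so shifts of whole chromosomes in single mice were measured too. The median log2 deviation of the genes of each chromosome from the median library of the same table, over 8365 well-expressed genes, was at least 0.3 from 0 in 10 of 260 cases, in 7 libraries. In model 1 the lowest was chromosome 18 in the preleukaemic preleukemic_77 (-0.87), and in model 2 the highest was chromosome 3 in the leukaemic leukemic_606 (0.62), with chromosome 5 in leukemic_921 at 0.45. The chromosome 18 genes had a median difference of 0.31 between the models, or 0.09 without preleukemic_77, and the chromosome 5 genes one of -0.25, or 0.00 without leukemic_921.

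**Figure D4:**
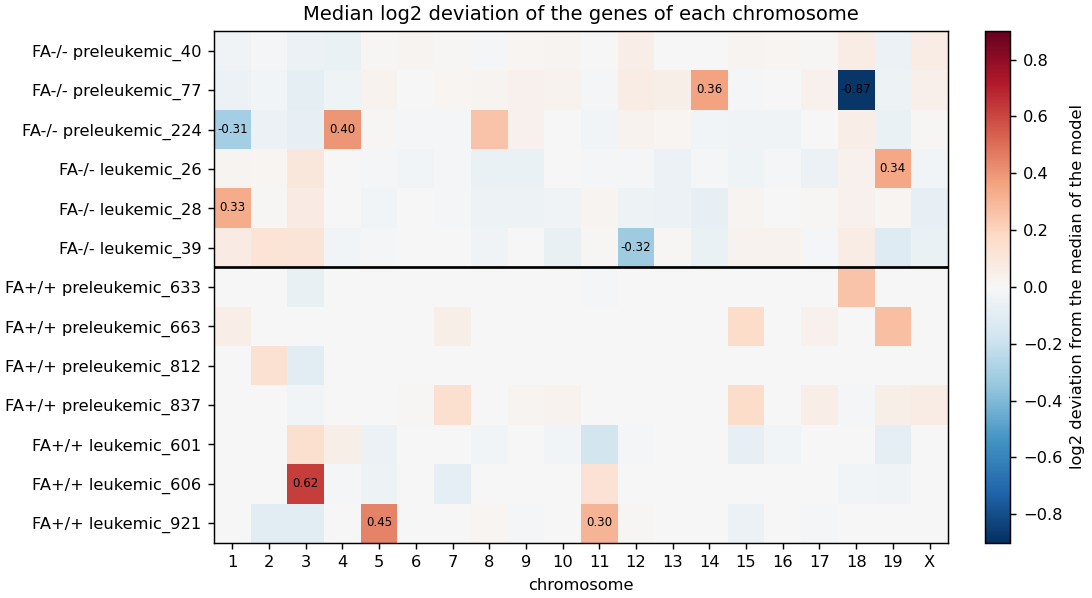
Median log2 deviation of each chromosome's genes (x axis) in each of the 13 libraries (y axis) from the median library of its table. Chromosome 18 in preleukemic_77 (-0.87) and chromosome 3 in leukemic_606 (0.62) stand out most.

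Within 5 Mb of Nras, 35 other genes had a median deviation of 0.62 in leukemic_28 and 0.79 in leukemic_39, and of 0.05 in leukemic_26, the leukaemic FANCA-null mouse without high Nras. The same window was at 0.86 in leukemic_606 and 0.36 in leukemic_601 of model 2. The 49 genes around Mdm4 stood at 1.11 in leukemic_39, 0.26 in leukemic_28 and -0.57 in the preleukaemic preleukemic_224. The 29 genes around Kit stood at 0.69 in leukemic_26 and 0.31 in leukemic_921. Neighbouring genes were thus high in the same leukaemic FANCA-null libraries in which Nras, Mdm4 or Kit was highest, and copy number itself was not tested.

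**Figure D5:**
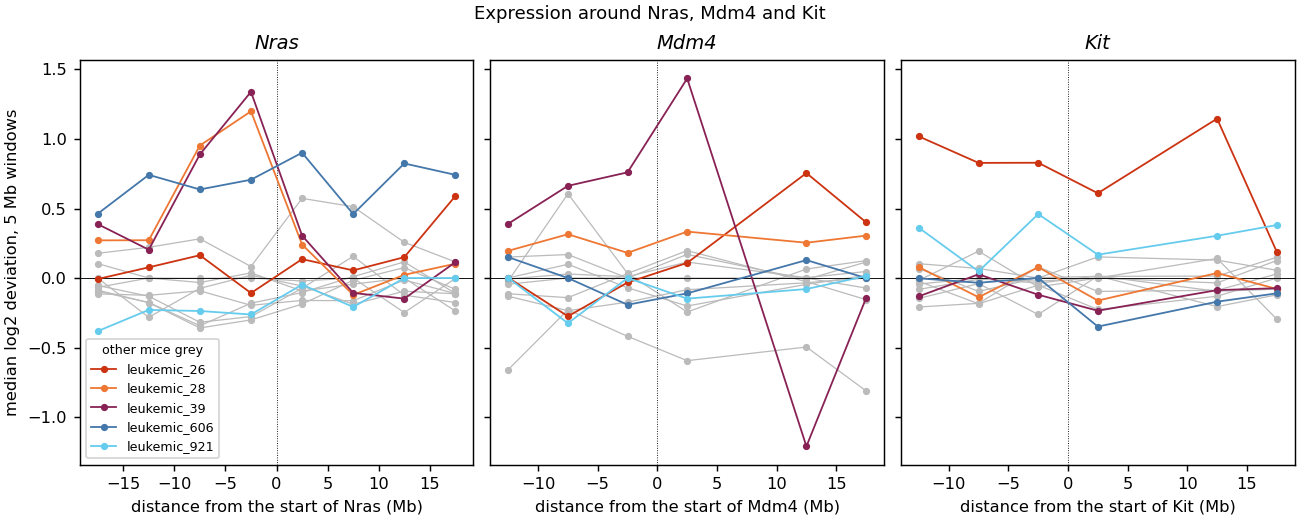
Median log2 deviation of genes in 5 Mb windows (y axis) by distance from Nras, Mdm4 and Kit (x axis), with the leukaemic FANCA-null mice leukemic_26, leukemic_28 and leukemic_39 and the leukaemic model 2 mice leukemic_606 and leukemic_921 in colour and the other mice in grey. Around Nras leukemic_28 and leukemic_39 are high, around Mdm4 leukemic_39 (1.11 within 5 Mb) and around Kit leukemic_26 (0.69).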

How the data were processed

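RNA was measured in 17 mouse erythroblast cultures by poly-A selected, stranded RNA-seq. According to the submitters' processing notes, the authors used bcl2fastq 2.17.1.14, STAR 2.5.3a and HTSeq 0.6.1p1 on mm10/GRCm38, and they deposited whole-number counts per Ensembl gene in 1 table per model. Model 1 libraries used 400 ng of RNA and 8 min of fragmentation, and model 2 libraries 300 ng and 2 min. Genes absent from a table (3941 of model 1, 2571 of model 2) were left out, and shared genes held at least 99.935% of the counts.

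The counts of 13 libraries were fitted together with edgeR 4.0.16 (filterByExpr, TMM, quasi-likelihood test, R 4.3.3), 1 mean per group, with Benjamini-Hochberg adjustment over 14294 genes. A gene could pass the filter through its counts in 1 group alone, so list shares describe only the members that passed. The common dispersion was 0.354. The script was tested on simulated data for the difference between the models. DESeq2 1.42.0, limma 3.58.1 (voom), other filters and scalings, all 17 libraries, separate fits and each mouse left out were alternatives. Named genes were, besides those said to be chosen by their values, the genes called, the 10 of smallest p each way, the 10 of smallest p that moved in opposite directions, the 2 of smallest p in a list and the genes the study names, of which the text gives a part. Members and lists were chosen with earlier results of these data known. Since 1 library stands for 1 mouse, p-values measure the spread between mice. A floor of 3 counts per library was used against groups at 0, and it covers counting error only. Some genes are not reported here.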

Additional observations from a re-analysis of the deposited data

Results flagged for a closer look

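Rpsa-ps10 was the gene whose leukaemic change differed between the models in the test itself (log2 difference 8.24). In the group of 4 preleukaemic TgSpi1FA+/+ libraries, 65 of the genes named above had at least 10 counts and were examined for a library far from the others, and 14 had one, 13 of them in preleukemic_633. The rule is set to flag about 1 in 20 groups by chance. Whether that rate holds for low counts, or for genes named by their p or values, was not tested. The 14 flags are therefore a description. The CPM in preleukemic_633 was 102 for Igf2bp1, 85.0 for Hbb-bh1, 433 for Fech, 14.1 for Ankrd6, 3.84 for Tcf7, 1.97 for Jag2, 1.87 for Hba-x, 1.47 for Kdr, 1.39 for Vangl2, 1.08 for B4galt5 and 0.841 for Fgf3, each above the other 3 mice. Nras (223) was also high there, while Nptn (85.0) was low. In preleukemic_812 the level of Ifitm1 (1.13 CPM) was above the other 3. Of the 295 genes called higher in leukaemic FANCA-null cells, 125 (42.4%) had preleukemic_633 as their highest model 2 library, against 18.9% of all genes tested. Without this mouse the log2 difference was 1.22 for Fech, 4.24 for Ankrd6, 1.4 for Nras and -1.37 for Nptn, against 1.70, 6.23, 1.5 and -1.52 with it.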

How the results depend on the processing

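The number of genes past the test was 1 under the other normalizations, filters and robust fit tried, and moved with DESeq2 (1631, of which 1148 higher and 483 lower in model 1), all 17 libraries (673, 403 and 270), limma voom with quality weights (1800, 918 and 882) and separate fits of each model (1988, 1180 and 808). It was 0, with 0 higher in model 1, after leaving out genes more than 16-fold apart between the tables, an alternative chosen after seeing the data that drops Rpsa-ps10. Called members of the pathway lists numbered 0 in the main test and 153, 71, 172 and 190 under those 4. For the separate fits the p came from a normal approximation, which makes no allowance for the few mice. The counts of 1988 genes and 190 members may therefore be too high. With 1 mouse left out the count ran from 1 to 634 (without preleukemic_812; 257 without leukemic_26, 116 without preleukemic_837, 24 without preleukemic_633), with 1 to 398 higher, 0 to 236 lower and 0 to 79 list members.

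List medians were moved by voom for mast cell markers (-3.61) and RAS-MAPK genes (0.52), by a filter in each table for globins (1.71), HOX genes (0.43) and endothelial markers (4.31), by the 16-fold limit for globins (1.72), by a filter of 1 CPM for HOX genes (3.96), and by separate fits for HOX genes (0.46) and endothelial markers (4.39). With 1 mouse left out the medians ran from 1.24 to 1.65 for beta-catenin genes, 0.46 to 2.20 for WNT receptors, -0.29 to 1.18 for polarity genes, 0.66 to 1.09 for NOTCH genes, 0.61 to 1.05 for RAS-MAPK genes, 0.81 to 1.72 for TGF-beta genes, 0.71 to 7.60 for HOX genes, 1.82 to 4.27 for globins, 2.96 to 4.84 for megakaryocyte, 4.42 to 5.94 for endothelial and -3.49 to -1.22 for mast cell markers, 0.70 to 1.29 for glycolysis, -0.30 to -0.08 for oxidative phosphorylation, -0.88 to -0.32 for MHC class I genes, -0.74 to -0.45 for ribosomal proteins, -0.55 to -0.35 for DNA replication and -0.55 to -0.14 for Fanconi genes.

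Fanca (0.14) and Trp53 (0.66) changed sign under voom, and with 1 mouse left out Fanca ran from -0.39 to 0.52, Trp53 from -2.81 to 0.54 and Spi1 from -1.90 to 0.034. The cause of these shifts was not tested. No paired analysis was possible because the mouse numbers name single animals and no number is shared between the groups. Genes with a group at or under 3 counts (1398 of 14294, 9.78%) have fitted folds that depend on the prior count.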
